A study of Mus musculus with 16 samples.

Results

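The transcripts described here come from 10 mouse genes of sarcoplasmic reticulum calcium cycling. They are the calcium pump gene Atp2a2, its inhibitors Pln and Sln, the release channel gene Ryr2, the luminal and junctional genes Casq2, Hrc, Trdn, Asph and Jph2, and the exchanger gene Slc8a1. Every probe whose RefSeq accession maps to 1 of these genes was taken, which gave 18 probes. The 10 genes were among 22911 gene symbols on the array, and 9 of them were among the 13725 genes bright enough to be tested, all but Sln.

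RNA from the heart apex of 16 male C57Bl/6 mice aged 3 months was read on 1-colour Agilent arrays, with 1 array per mouse and 4 mice in each group. Mice labelled AKT1+AKT2 DKO (DKO below) were homozygous for floxed Akt1 and Akt2, those labelled AKT1 KO for floxed Akt1 and those labelled AKT2 KO for floxed Akt2, whereas control mice had no floxed allele. All 16 mice, controls included, carried 1 copy of MHC-mercremer, a hormone-activated Cre recombinase driven by the αMHC promoter and hence active in cardiomyocytes, and all were given hydroxytamoxifen on 5 days, at 500 µg per day. Hearts were taken 21 days after induction, and the design targets only cardiomyocytes among the cell types of the apex. The sample titles read "untreated", while the remaining labels name tamoxifen. The comparison asks how the loss of 1 or both kinases in adult cardiomyocytes changed these transcripts.

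In a cardiomyocyte, calcium that enters through L-type channels opens the ryanodine receptor (Ryr2), which releases much more calcium from the sarcoplasmic reticulum and so starts contraction. The pump SERCA (Atp2a2) returns calcium to the store and is held back by phospholamban (Pln) and, mainly in atria, by sarcolipin (Sln), while the sodium-calcium exchanger (Slc8a1) removes calcium from the cell. Inside the store calsequestrin (Casq2) and the histidine-rich protein (Hrc) bind calcium, triadin (Trdn) and junctin (a product of Asph) tie calsequestrin to the channel, and junctophilin (Jph2) holds the store against the surface membrane. AKT1 and AKT2 are kinases downstream of the insulin receptor and growth factor receptors.

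Values are log2 intensities relative to the 75th percentile of the array, and 1 log2 unit is a 2-fold difference. Because each probe has its own brightness, levels were compared between groups for 1 probe and never between genes. Akt2 averaged 2.90 ± 0.10 in DKO hearts and 2.54 ± 0.09 in AKT2 KO hearts, against 4.91 ± 0.06 in control hearts (SD, n = 4 each). Akt1 did not fall on its probes, with 5.11 ± 0.08 in DKO and 5.23 ± 0.26 in AKT1 KO hearts, against 5.13 ± 0.03 in control hearts on the brighter probe, and log2 differences of 0.22 in DKO and 0.28 in AKT1 KO hearts on the other. Where these probes lie relative to the floxed exons 6 and 7 is not known here, so that they do not check the label. Cardiomyocyte markers such as Myh6 and Tnnt2 were bright in every group, and of 13 skeletal muscle markers 8 passed the filter and 5 (Myh1, Myh2, Myh4, Actn3 and Ryr1) did not. The median SD of a gene within a group was 0.248 for DKO hearts, 0.162 for AKT1 KO hearts, 0.114 for AKT2 KO hearts and 0.090 for control hearts. DKO replicate 3 stood apart on the first principal component, with a score of 78.6 against 42.5 to 47.8 for the other DKO arrays. The 2 slides held 2 arrays of each group, but each group always lay in 1 array column, so that column and group cannot be told apart.

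Upstream sequence was found for 6 of the 10 genes in the RefSeq promoter table (GRCm38.p6), as 7 windows because Jph2 has a second start. The 4 windows below are shown because they are the ones in which a motif of the cardiac factors MEF2 or GATA was matched. Each is the 150 bases before the start, 5′ to 3′ on the strand of the gene, with the match in capitals.
Casq2, chr3:102086265-102086414, plus strand: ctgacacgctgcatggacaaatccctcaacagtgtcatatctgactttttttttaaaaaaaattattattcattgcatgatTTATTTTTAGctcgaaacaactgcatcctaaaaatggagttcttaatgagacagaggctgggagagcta
Hrc, chr7:45335119-45335268, plus strand: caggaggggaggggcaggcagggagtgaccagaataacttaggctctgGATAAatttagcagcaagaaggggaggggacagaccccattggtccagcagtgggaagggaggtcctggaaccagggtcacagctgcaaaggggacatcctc
Pln, chr10:53337536-53337685, plus strand: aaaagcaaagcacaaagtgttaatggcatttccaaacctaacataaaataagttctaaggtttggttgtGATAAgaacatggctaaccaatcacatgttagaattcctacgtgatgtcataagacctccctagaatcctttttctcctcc
Slc8a1, chr17:81738388-81738537, minus strand: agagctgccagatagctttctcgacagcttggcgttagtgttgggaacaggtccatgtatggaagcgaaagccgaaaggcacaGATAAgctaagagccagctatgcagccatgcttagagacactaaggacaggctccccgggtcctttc
The capitals mark the MEF2 consensus in Casq2, 69 bases before its start, and GATAA in the windows of Hrc, Pln and Slc8a1, 102, 81 and 67 bases before theirs. Over the 250 bases searched on both strands, the MEF2 consensus was matched in 2.92% and GATAA in 22.6% of 32851 promoters. The FoxO motif GTAAACA (3.17% of promoters), the NFAT motif GGAAAA (20.4%), the MCAT motif CATTCC (12.6%) and the CArG box (1.47%) had no match in the 7 windows, which says only that these letters are not there. The E-box CANNTG (66.2% of promoters) was matched in all 6 genes, and the GC box GGGCGG (32.7%) in Hrc and Jph2. These matches are descriptions of sequence and not binding sites. The genes with a GATAA match included 2 that fell (Hrc and Pln) and 1 that rose (Slc8a1) in DKO hearts.

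In DKO hearts all 9 tested calcium cycling transcripts, each read on its brightest kept probe, differed from control at a limma adjusted p under 0.05. The pump, its inhibitor phospholamban, the release channel and the 5 luminal and junctional genes fell, and the exchanger rose. Of all 13725 genes tested 45.6% passed the same test (24.4% higher and 21.2% lower), so that a call by itself was common in these hearts. The 8 falls against 1 rise stood beside a median log2 difference of -0.90 over the 9 genes and of 0.02 over all genes tested. DKO and control arrays did not overlap for any of the 9, where 20.6% of all genes lay apart lower and 23.8% higher. Hrc, Trdn and Asph were called with a fall of at least 1 log2 unit, as were 4.63% of all genes. All 9 used probes were well above background on all 16 arrays and none was saturated, so that the filter on dim probes did not select them by group. Another kept probe of Atp2a2 (-0.04), of Asph (-0.19) and of Slc8a1 (0.20) was not called in the fit over all kept probes.

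The pump gene Atp2a2 (chromosome 5, 122453513 to 122502225 in GRCm38.p6) read 7.43, 7.33, 6.97 and 7.49 in DKO hearts, against 7.95, 7.87, 7.90 and 7.94 in control hearts (replicates 1 to 4). It read 7.65, 7.91, 7.91 and 7.92 in AKT1 KO hearts and 7.85, 7.70, 7.80 and 7.83 in AKT2 KO hearts. All 4 DKO arrays lay below every other array, with replicate 3 lowest. The DKO level was 1.53-fold lower than in control, a log2 difference of -0.61 (SE 0.10, limma adjusted p = 0.000235). Without replicate 3 the difference was -0.50, and within slides 1 and 2 it was -0.53 and -0.69, with an adjusted p of 0.0591 on slide 2. The other kept Atp2a2 probes differed by -0.69 (called) and -0.04 (not called).

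Pln (chromosome 10, 53337686 to 53345999), which encodes the small membrane protein that slows the pump until it is phosphorylated, read 6.02, 5.80, 4.94 and 5.86 in DKO hearts, against 6.38, 6.48, 6.48 and 6.49 in control hearts. AKT1 KO hearts read 6.39, 6.50, 6.32 and 6.60, and AKT2 KO hearts 6.44, 6.41, 6.65 and 6.38. Every DKO array was below all others, and replicate 3 was lower than the other 3 DKO arrays by a wide margin. The transcript was 1.74-fold lower in DKO than in control hearts (log2 difference -0.80, SE 0.17, limma adjusted p = 0.00173), and the difference was -0.56 without replicate 3. The difference was -0.52 within slide 1 and -1.08 within slide 2, which holds replicate 3.

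The balance of the inhibitor to the pump was followed through the log2 difference Pln minus Atp2a2 on each array. Relative to the control mean, this ratio was 0.05, -0.07, -0.57 and -0.18 on the 4 DKO arrays. The mean shift was -0.19 in DKO (exact permutation p = 0.229), 0.07 in AKT1 KO (exact permutation p = 0.457) and 0.14 in AKT2 KO hearts (exact permutation p = 0.2), with adjusted values of 0.343, 0.457 and 0.343 over the 3 tests. The smallest p that 4 against 4 arrays allow is 0.0286. Within slide 1 the shift was 0.02 in DKO and -0.01 in AKT1 KO hearts, and without DKO replicate 3 that of DKO hearts was -0.07. No change of the ratio was detectable at this number of arrays.

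Sln (chromosome 9, 53850251 to 53853849), the second small inhibitor and in the heart mainly an atrial transcript, was well above background on 2 of 16 arrays. These were DKO replicate 1 (-3.60) and AKT2 KO replicate 4 (-2.70). The other DKO arrays read -5.989, -4.376 and -5.396, AKT1 KO arrays -6.28 to -4.92, the other AKT2 KO arrays -6.76 to -5.73, and control arrays -6.74 to -4.52. The groups overlapped throughout, and no fold change is given for a probe at background. Of 6 tested atrial markers Nppa (2.49) and Dkk3 (2.004) rose in DKO against control hearts, Tbx5 (-0.54) fell and Bmp10 did not pass the filter. In AKT1 KO hearts Nppa (1.47) and Mybphl (3.60) rose, and in AKT2 KO hearts 0 of the 6 passed. The summed level of the 6, nearly all of it Nppa, was 9.11 to 9.46 in DKO, 8.07 to 8.49 in AKT1 KO and 6.45 to 7.86 in AKT2 KO hearts, against 6.56 to 7.18 in control hearts.

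**Figure D1:**
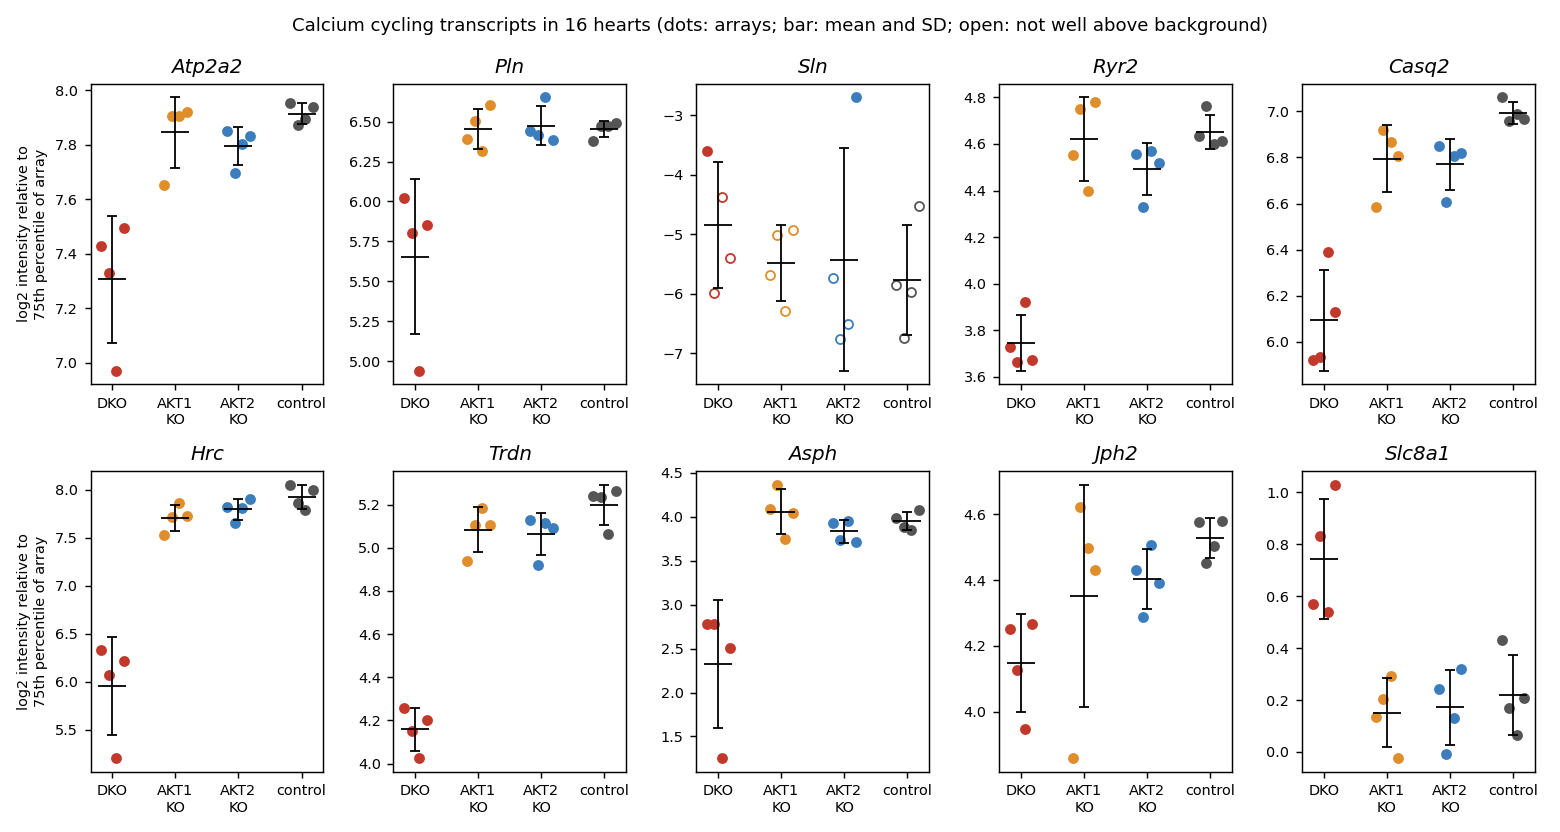
The 10 panels show each gene's log2 intensity relative to the array's 75th percentile, with 1 dot per array, the groups DKO, AKT1 KO, AKT2 KO and control from left to right, and the group mean with its SD as a bar (n = 4). DKO arrays lie below all control arrays for the 8 genes other than Sln and Slc8a1 and above them for Slc8a1. Open dots mark arrays on which the probe was not well above background, 14 of 16 for Sln.

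The release channel gene Ryr2 (chromosome 13, 11553099 to 12106945) read 3.73, 3.66, 3.92 and 3.67 in DKO hearts, against 4.63, 4.76, 4.60 and 4.61 in control hearts. AKT1 KO hearts read 4.55, 4.75, 4.40 and 4.78, and AKT2 KO hearts 4.56, 4.33, 4.57 and 4.52. DKO arrays were again below all others, but here replicate 3 was the highest of them. The DKO level was 1.87-fold lower than control (log2 difference -0.91, SE 0.10, limma adjusted p = 4.08e-06), and -0.96 without replicate 3. A second Ryr2 probe, for the same accession, had a difference of -0.93. Within slides 1 and 2 the differences were -1.002 and -0.81.

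Casq2 (chromosome 3, 102086415 to 102146514), the cardiac calsequestrin that buffers calcium inside the store, read 5.92, 5.94, 6.39 and 6.13 in DKO hearts, against 7.06, 6.96, 6.99 and 6.97 in control hearts. In AKT1 KO hearts it read 6.59, 6.92, 6.87 and 6.81, and in AKT2 KO hearts 6.85, 6.61, 6.81 and 6.82. The DKO arrays did not overlap with any other group, with replicate 3 nearest to them. The fall was 1.87-fold against control (log2 difference -0.90, SE 0.11, limma adjusted p = 1.1e-05), and -0.999 without replicate 3. Its second probe differed by -1.05, and the differences within slides 1 and 2 were -1.08 and -0.72.

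Among the 9 tested genes Hrc had the largest difference. Its protein binds calcium in the lumen of the store and interacts with the pump and with triadin. Hrc (chromosome 7, 45335269 to 45338973) read 6.33, 6.07, 5.20 and 6.22 in DKO hearts, against 8.06, 7.86, 7.79 and 7.998 in control hearts. It read 7.53, 7.72, 7.87 and 7.73 in AKT1 KO hearts and 7.82, 7.65, 7.81 and 7.91 in AKT2 KO hearts. More than 1 log2 unit separated the highest DKO array from the lowest array of the other groups. The DKO level was 3.92-fold lower than control (log2 difference -1.97, SE 0.19, limma adjusted p = 1.48e-06), and 0.882% of all tested genes had a difference at or below it. Without replicate 3 the difference was -1.72, and within slides 1 and 2 it was -1.76 and -2.19.

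Triadin and junctin are membrane proteins that link calsequestrin to the release channel. Trdn (chromosome 10, 33083483 to 33476709) read 4.26, 4.15, 4.03 and 4.203 in DKO hearts, against 5.24, 5.24, 5.06 and 5.26 in control hearts. AKT1 KO hearts read 4.94, 5.11, 5.18 and 5.11, and AKT2 KO hearts 5.13, 4.92, 5.12 and 5.09. The 4 DKO arrays lay close together and far below the other 12. Trdn was 2.06-fold lower in DKO than in control hearts (log2 difference -1.04, SE 0.08) and had the smallest adjusted p of the 9 genes (limma adjusted p = 2.39e-07). It moved little between settings, with -0.997 without replicate 3 and -1.03 and -1.05 within slides 1 and 2.

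Asph (chromosome 4, 9449085 to 9669344) is a locus of several proteins, among them junctin, junctate and an aspartyl hydroxylase. Its brightest probe (NM_133723) read 2.78, 2.78, 1.25 and 2.51 in DKO hearts, against 3.99, 3.88, 3.85 and 4.07 in control hearts. AKT1 KO hearts read 4.08, 4.36, 3.74 and 4.04, and AKT2 KO hearts 3.93, 3.73, 3.95 and 3.71. DKO arrays were below all others, with replicate 3 lower than the rest of its group by more than 1 log2 unit. The level was 3.07-fold lower in DKO than in control hearts (log2 difference -1.62, SE 0.26, limma adjusted p = 0.000157). The difference was -1.26 without replicate 3, -1.15 within slide 1, -2.08 within slide 2 and -0.90 when the 2 kept probes were averaged. The other kept probe alone differed by -0.19 and was not called.

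Jph2 (chromosome 2, 163336242 to 163398049), whose protein bridges the store and the surface membrane, read 4.25, 4.13, 3.95 and 4.27 in DKO hearts, against 4.58, 4.45, 4.50 and 4.58 in control hearts. AKT1 KO hearts read 3.86, 4.62, 4.50 and 4.43, and AKT2 KO hearts 4.43, 4.29, 4.51 and 4.39. The DKO arrays lay below all control arrays, but AKT1 KO replicate 1 was lower than any of them. The fall was 1.30-fold (log2 difference -0.38, SE 0.13, limma adjusted p = 0.0302), and 22% of all tested genes had a difference at or below it. It was not called without DKO replicate 3 (-0.31, adjusted p = 0.07), DKO replicate 2 (-0.37, 0.0577) or control replicate 1, 3 or 4 (-0.36, -0.39 and -0.36, with 0.0665, 0.0531 and 0.0694), nor within slide 2 (-0.43, 0.198).

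Slc8a1 (chromosome 17, 81373105 to 81738387), which encodes the exchanger that carries calcium out of the cell against sodium, was the only gene of the 9 that was higher in DKO hearts. It read 0.57, 0.83, 0.54 and 1.03 in DKO hearts, against 0.43, 0.17, 0.07 and 0.21 in control hearts. AKT1 KO hearts read 0.13, 0.20, 0.29 and -0.02, and AKT2 KO hearts 0.24, -0.01, 0.13 and 0.32. All DKO arrays were above all others, by a narrow margin over control replicate 1. The level was 1.44-fold higher than control (log2 difference 0.53, SE 0.12, limma adjusted p = 0.00244), with 0.59 without replicate 3. Within a slide, where 2 arrays stand against 2, the differences were 0.40 (adjusted p = 0.0623) and 0.65 (adjusted p = 0.0633). The other kept Slc8a1 probes differed by 0.52 (called) and 0.20 (not called).

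**Figure D2:**
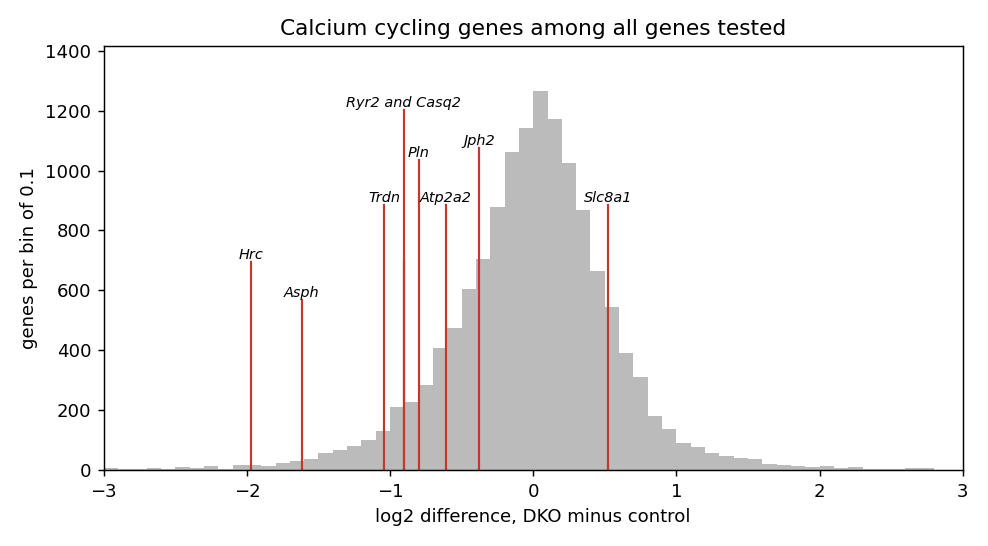
Bars count the 13725 tested genes by log2 difference, DKO minus control, in bins of 0.1, and lines mark the 9 calcium cycling genes (genes beyond 3 log2 units either way are not drawn). Hrc at -1.97 and Asph at -1.62 lie in the left tail, the other falls between -1.04 and -0.38, and Slc8a1 at 0.53 on the right.

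The groups of 4 also differed in the amounts of other cell types' transcripts, and in tissue RNA fewer cells of a type and less RNA per cell cannot be told apart. The counts below stand beside 21.2% of all genes called lower and 24.4% called higher in DKO than in control hearts. Of 9 cardiomyocyte markers outside the 10 genes, 7 were lower and 0 higher in DKO than in control hearts, with a median log2 difference of -0.43 and a range of -2.005 (Ckm) to 0.01 (Tnnc1). Their summed level was 11.30 to 11.58 in DKO and 11.74 to 11.93 in control hearts. All 7 fibroblast markers were higher, with a summed level of 8.21 to 8.50 in DKO and 7.56 to 7.64 in control hearts, as were 3 of 6 macrophage markers (4.60 to 5.09 against 4.39 to 4.58 in control). All 3 tested ventricular markers were lower (9.90 to 10.22 in DKO, against 10.30 to 10.54 in control). Of the remaining lists, 1 of 6 endothelial markers fell, 2 of 5 smooth muscle markers rose and 2 fell, 2 of 4 nervous tissue markers rose and 2 fell, 1 of 2 adipocyte markers rose and 1 fell, and none of 3 lymphocyte and 4 red cell markers passed. The part of these cell types in the calcium cycling differences was not tested.

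Against the single knockouts the picture was close to that against control. DKO and AKT1 KO hearts differed in 8 of the 9 genes (7 lower and 1 higher in DKO, where 47% of all genes were called, 20.3% lower and 26.7% higher), with Hrc at -1.75, Asph at -1.73 and Slc8a1 at 0.59. DKO and AKT2 KO hearts also differed in 8 (7 lower and 1 higher, where 42.1% of all genes were called, 18.6% lower and 23.5% higher), with Hrc at -1.84, Asph at -1.50 and Slc8a1 at 0.57. DKO arrays lay apart from AKT1 KO arrays for 8 of the 9 genes (7 lower, where 14.8% of all genes did, and 1 higher, where 22.1% did) and from AKT2 KO arrays for all 9 (8 lower, where 17.3% did, and 1 higher, where 21.5% did). Jph2 was the gene not called in either, at -0.20 against AKT1 KO (95% interval -0.49 to 0.08, limma adjusted p = 0.221) and -0.26 against AKT2 KO (-0.54 to 0.03, 0.136). Without AKT1 KO replicate 1 these values were -0.37 (adjusted p = 0.0038) and -0.26 (0.0193), and with all 16 arrays Jph2 was also called under quantile normalization (-0.315, adjusted p = 0.0346, and -0.339, 0.0274), so that the call depended on this array and on the scaling. Both comparisons share the DKO arrays with each other and with the comparison against control.

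Neither single knockout had a called calcium cycling gene. In AKT1 KO hearts 0 of 9 genes passed limma and 0 had an unadjusted p under 0.05, where 7.41% of all genes did (0.794% of all genes were called, 0.415% higher and 0.379% lower), with differences from -0.22 (Hrc) to 0.11 (Asph). In AKT2 KO hearts 0 of 9 passed limma and 0 had an unadjusted p under 0.05, where 3.23% of all genes did (0.131% of all genes were called, 0.0729% higher and 0.0583% lower), with differences from -0.22 (Casq2) to 0.02 (Pln). The 95% intervals still allowed differences down to -0.61 (Hrc) in AKT1 KO and -0.67 (Asph) in AKT2 KO hearts, and for Atp2a2 down to -0.29 and -0.34. These intervals use 1 spread shared by all 4 groups, to which DKO arrays add most for Hrc and Asph. For Hrc the SD was 0.51 in DKO, 0.14 in AKT1 KO and 0.12 in control hearts. For Asph it was 0.73 in DKO, 0.13 in AKT2 KO and 0.10 in control hearts. AKT2 KO and AKT1 KO hearts did not differ in any of the 9 by limma (0.896% of all genes were called, 0.415% higher and 0.481% lower), and 0 had an unadjusted p under 0.05, where 7.34% of all genes did. Between these 2 groups 0 of the 9 genes were without overlap on their brightest probe, where 3.91% of all genes lay apart higher and 2.91% lower. On a dimmer Atp2a2 probe AKT2 KO arrays lay above AKT1 KO arrays without overlap (0.18, limma unadjusted p = 0.0498). A dimmer Slc8a1 probe differed by 0.28 with overlap (limma unadjusted p = 0.0455). Neither was called after adjustment over all kept probes. The mean of AKT1 KO hearts lay below the control mean for 8 of 9 genes (59.7% of all genes). For AKT2 KO hearts it did so for 8 of 9 as well (57.7% of all genes).

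Some single-knockout arrays nonetheless did not overlap with control. Casq2 was lower in all 4 AKT1 KO and in all 4 AKT2 KO arrays than in any control array, with differences of -0.20 (SE 0.11, unadjusted p = 0.0786) and -0.22 (SE 0.11, unadjusted p = 0.0512), and adjusted p of 0.764 and 1. The second Casq2 probe overlapped with control in both, at 0.002 in AKT1 KO and -0.05 in AKT2 KO hearts. Ryr2 (-0.16) and Atp2a2 (-0.12) were also without overlap in AKT2 KO hearts on their brightest probe. The other Atp2a2 probes (-0.03 and 0.06) overlapped with control there. The second Ryr2 probe overlapped too, but it fell by more than the brightest one (-0.21, limma unadjusted p = 0.0254). It was not called after adjustment over all kept probes. The gene counts given above for the single knockouts rest on the brightest probe of each gene. Arrays lay below control without overlap for 6.29% of all genes in AKT1 KO and 5.11% in AKT2 KO hearts, and for 1 and 3 of the 9 genes. For Atp2a2, Ryr2, Casq2 and Trdn the order of the group means was DKO lowest, then AKT2 KO, AKT1 KO and control. For the other 5 genes the order of AKT1 KO, AKT2 KO and control varied, and neighbours among these 3 groups did not differ by limma for any of the 9.

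**Figure D3:**
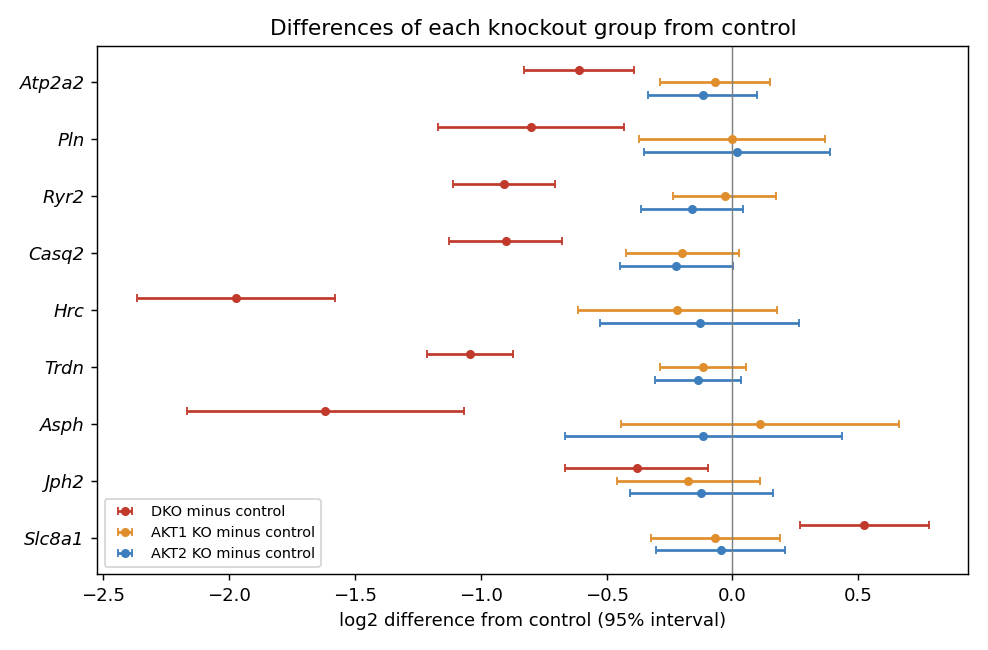
Points give the log2 difference of DKO (red), AKT1 KO (orange) and AKT2 KO (blue) from control for the 9 tested genes, with 95% intervals from the limma fit (4 arrays per group). The DKO intervals lie clear of 0 for all 9 genes, and the intervals of both single knockouts include 0 for all 9.

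Whether the DKO differences exceeded the sum of both single-knockout differences was tested as the departure from additivity, that is the DKO difference from control less the differences of both single knockouts. It passed for 8 of 9 genes (7 lower, 1 higher), where 26% of all genes passed (10.1% lower and 15.9% higher). It was -1.62 for Hrc (SE 0.26, limma adjusted p = 0.000557), -1.61 for Asph (SE 0.36, 0.00518), -0.79 for Trdn (SE 0.11, 0.000233) and -0.72 for Ryr2 (SE 0.14, 0.00163). Slc8a1 departed upward by 0.64 (SE 0.17, 0.0127), and Pln downward by -0.82 (SE 0.24, 0.0238). These 6 were called with any 1 array left out, except Pln without AKT2 KO replicate 3 (-0.76, adjusted p = 0.0514). All of these values are for the brightest probe of a gene. On the other kept Asph probe the departure was -0.006 (limma adjusted p over all kept probes = 0.987). Other probes departed by -0.655 for Ryr2 (0.00143), and by 0.63 (0.0226) and 0.56 (0.331) for Slc8a1.

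The 2 smallest of the called departures lay near the threshold. That of Atp2a2 was -0.42 (SE 0.14, limma adjusted p = 0.0435) and was called in 5 of the 16 fits with 1 array left out, where it ranged from -0.49 to -0.31 (adjusted p 0.0197 to 0.0816). It was not called with slide and row as a block (adjusted p = 0.0553) or with replicate as a block (0.0567). The other Atp2a2 probes departed by -0.64 (limma adjusted p over all kept probes = 0.0322) and 0.02 (0.922). That of Casq2 was -0.48 (SE 0.15, 0.028) and was called in 7 of 16, with -0.58 to -0.42 (0.00221 to 0.0563). The second Casq2 probe departed by -1.01 (limma adjusted p over all kept probes = 0.00208). Jph2 departed by -0.08 (95% interval -0.48 to 0.32, adjusted p = 0.787). Within a slide 4 of the 9 departures were called on slide 1, where 19.7% of all genes were, and 0 on slide 2, where 1.37% were.

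Of the 9 genes, 5 had more than 1 kept probe. No pair of probes of a gene passed the exact permutation test of its DKO shift after adjustment over 9 pairs. None could have passed unless most pairs did, so this result does not show that the probes of a gene shifted alike. The Asph pair and some Atp2a2 pairs had the smallest possible p (exact permutation p = 0.0286, adjusted 0.0858). Of the 16 kept probes 11 were lower and 2 higher in DKO hearts (40% of all probes were called, 19.5% lower and 20.5% higher), and 3 were not called. Both Atp2a2 probes for NM_009722 fell, by -0.61 and -0.69. The probe for the other Atp2a2 accession, NM_001110140, read 2.38, 2.58, 2.15 and 2.40 in DKO hearts, against 2.44, 2.41, 2.34 and 2.46 in control hearts. DKO and control arrays overlapped on this probe, with a difference of -0.04 (95% interval -0.22 to 0.15, limma adjusted p over probes = 0.776).

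Relative to the NM_001110140 probe, the brighter NM_009722 probe was lower in DKO than in control hearts by -0.57 (exact permutation p = 0.0286, the smallest possible, and 0.0858 adjusted over 9 probe pairs). All 4 DKO arrays shifted the same way, by -0.46, -0.75, -0.68 and -0.40. For Asph the NM_133723 probe was lower relative to the NM_001177850 probe by -1.43 (exact permutation p = 0.0286, adjusted 0.0858), with shifts of -1.26, -1.11, -2.003 and -1.34. In AKT2 KO hearts the same Atp2a2 pair shifted by -0.18 (exact permutation p = 0.0286, adjusted 0.257). The NM_001177850 probe itself read 2.95, 2.80, 2.17 and 2.76 in DKO hearts, against 2.82, 2.97, 2.82 and 2.83 in control hearts, a difference of -0.19 (95% interval -0.48 to 0.10, limma adjusted p over probes = 0.289). With 4 against 4 arrays and 9 pairs, no pair could pass after adjustment unless most pairs did. A further Asph probe (NM_001177856) was not above background on any array.

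The dimmer NM_009722 probe of Atp2a2 was also lower relative to the NM_001110140 probe in DKO hearts, by -0.66 (exact permutation p = 0.0286, adjusted 0.0858). For the pairs left, the exact test could not tell the DKO shift from 0. The paired probes for 1 accession of Atp2a2, Ryr2 and Casq2 shifted against each other by 0.09 (exact permutation p = 0.4), 0.02 (exact permutation p = 0.886) and 0.15 (exact permutation p = 0.0857) in DKO hearts. The 2 brighter Slc8a1 probes (NM_001286684 and NM_011406) rose by 0.53 and 0.52. The remaining one, NR_104580, was well above background on 12 of 16 arrays and differed by 0.20 (95% interval -0.39 to 0.79, limma adjusted p over probes = 0.6). Which part of a transcript each probe reads is not known here.

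**Figure D4:**
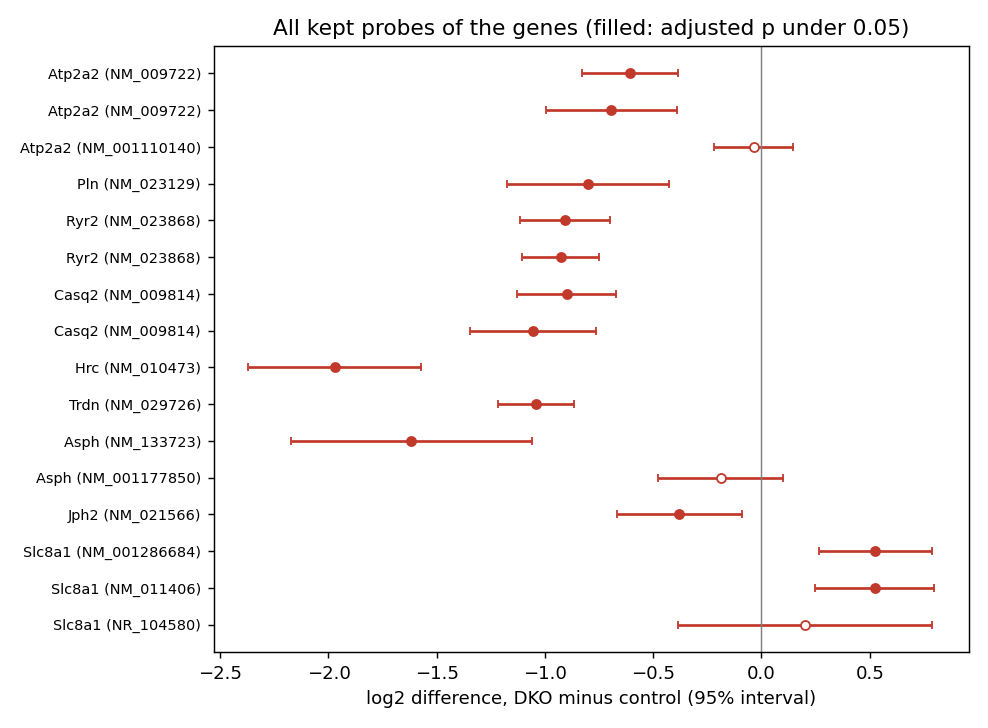
Points give the log2 difference, DKO minus control, of all 16 kept probes of the 9 genes, with 95% intervals, labelled by gene and RefSeq accession; filled points have an adjusted p under 0.05 over all probes. Open points lie at -0.04 (Atp2a2, NM_001110140), -0.19 (Asph, NM_001177850) and 0.20 (Slc8a1, NR_104580), the last with an interval that holds the values of the other Slc8a1 probes.

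Beyond the 10 genes, 99 of 109 further calcium-handling genes were tested, and in DKO hearts 22 were higher and 21 lower (43.4% called, against 45.6% of all genes), with a median difference of -0.005. In AKT1 KO and AKT2 KO hearts limma called 0 of 99. An unadjusted p under 0.05 was found for 11 of them in AKT1 KO (7.41% of all genes) and for 3 in AKT2 KO hearts (3.23% of all genes). The counts per list stand beside 24.4% of all genes called higher and 21.2% called lower in DKO than in control hearts. Among the other pump isoforms and pump regulators, 3 of 7 fell and 0 rose, with a median of -0.29. These were Atp2a1, the skeletal muscle pump (-0.74, SE 0.13, limma adjusted p = 0.000283), Smyd1, a muscle methyltransferase (-0.61), and Tmem64, a membrane protein that binds the pump (-0.45). Atp2a1 is also 1 of the 5 of 8 skeletal muscle markers that fell, whose summed level was 4.11 to 4.53 in DKO and 5.27 to 5.87 in control hearts, and its part in that fall was not tested. Of the release channel isoforms and regulators 5 of 13 rose and 1 fell, among them Sri, the calcium-binding protein sorcin (0.95), Calm2, a calmodulin gene (0.50), Itpr3, an inositol trisphosphate receptor (0.36), and the membrane adaptor Ank2 (-0.66). The channel's binding proteins Fkbp1a (-0.18, adjusted p = 0.322) and S100a1 (-0.07, 0.598) did not pass.

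Of 18 other luminal, junctional and counter-ion genes 3 rose and 6 fell, where 24.4% of all genes were called higher and 21.2% lower. Rcn3 (0.84) and Sdf4 (0.75), calcium-binding proteins of the secretory pathway, rose. Tmem38a, the counter-ion channel TRIC-A (-0.80, SE 0.13, limma adjusted p = 0.00016), and Srl, the store protein sarcalumenin (-0.70), fell. Of 11 L-type channel genes 3 rose and 4 fell, with the subunits Cacnb2 at -0.71 and Cacna2d1 at -0.65, the scaffold Ahnak at 0.79 and the channel inhibitor Gem at 0.69. The pore subunit Cacna1c also fell (-0.46, adjusted p = 0.0215).

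Among 25 kinases, phosphatases, anchors and phosphodiesterases 6 rose and 4 fell. This and the next counts stand beside the same 24.4% of all genes called higher and 21.2% lower. The catalytic subunit of protein kinase A, Prkaca, fell (-0.64, SE 0.08, limma adjusted p = 1.34e-05) and its regulatory subunit Prkar1a rose (1.18, SE 0.15, 2.39e-05). Camk2b, a calmodulin-dependent kinase gene, fell (-1.26), and so did the phosphodiesterase Pde4d (-0.76), whereas Camk2d, the main cardiac form, differed by 0.39 without passing (adjusted p = 0.0557). Of 10 extrusion and sodium genes 2 rose and 0 fell, among them Atp1b1 (0.60), a subunit of the sodium pump. Slc8a3, a second exchanger gene, was at -0.24 (adjusted p = 0.397). Of 7 store-operated entry genes the sensor Stim2 (0.36) and the channel Orai2 (0.60) rose. Of 8 mitochondrial genes the exchanger Letm1 (-0.87), the uniporter Mcu (-0.45) and its regulator Smdt1 (-0.26) fell, and the inhibitory subunit Mcub (0.58) rose.

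The genes whose profile over the 16 arrays was most like that of Atp2a2 were Mto1, a mitochondrial tRNA modification gene (r = 0.989), Ak1, an adenylate kinase (r = 0.989), and Ppa2, a mitochondrial pyrophosphatase (r = 0.988), with DKO differences of -0.84, -0.95 and -0.63. These correlations rest on 16 arrays in which the DKO group stands apart and are given without a test.

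Hrc lies on chromosome 7, 17.7 Mb from Akt2. Within 1 Mb of Hrc, 84 genes were tested, of which limma called Kcnj14 (4.90), Ush1c (2.32), Bcat2 (1.88) and Lrrc4b (1.43) higher and Mamstr (-1.25) and Ftl1 (-1.001) lower in AKT2 KO than in control hearts. Hrc itself differed there by -0.13 (95% interval -0.53 to 0.27), against -1.97 in DKO hearts. In DKO hearts Kcnj14 (3.03), Ush1c (1.22) and Bcat2 (0.87) were also higher than in control and Mamstr (-1.24) lower, whereas Lrrc4b was lower (-0.66) and Ftl1 was not called (-0.09). In AKT1 KO hearts Aldh16a1 (-1.29) and Kcnj14 (-1.59) were called near Hrc. Near Ryr2, where 6 genes were tested, Mtr (-1.13) and Gm10336 (-1.22) were called in AKT1 KO hearts, in which Ryr2 differed by -0.03 (95% interval -0.23 to 0.17). No tested gene within 1 Mb of the other 8 genes was called in either single knockout.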

How the data were processed

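Total RNA (100 ng per heart) was labelled with 1 dye and hybridised, per the labels' protocols. Scans were read by the authors with version 12.0.3.1 of Agilent Feature Extraction, per the file headers, and in the deposited intensity of each spot that software had already subtracted the background. The deposited matrix of processed values holds log2 values that matched quantile-normalized intensities centred per probe (r = 1 when rounded, for each array) and served as an alternative, called the authors' values. The share of probes well above background ran between 43.1% and 54% over the arrays, and the number of arrays limits the precision. The 4 mice of a group are separate animals, per the labels.

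Each intensity was divided by the 75th percentile of its array (492.1 to 809.4), and log2 was taken. Control spots and 118 probes with outlier flags were left out, and a probe was kept if, in 1 or more groups, all 4 arrays had it well above background. The files pair no probe with a symbol, so accessions were matched to the RefSeq gene annotation (GRCm38.p6), which named 32994 of 56605 probes. The brightest kept probe stood for a gene. The 16 arrays were fitted together, with a mean for each group, in limma 3.58.1 (R 4.3.3, with data.table in version 1.17.8; 12 residual and 2.54 prior degrees of freedom), and Benjamini-Hochberg adjustment ran over the 13725 genes of each of 7 comparisons, with 0.05 as the threshold. Replicate numbers of control, AKT2 KO and DKO arrays go with the same slide and row, and deviations from the group means correlated over 0.1 for all 4 numbers between DKO and control (0.14 to 0.316) and between AKT2 KO and control arrays (0.141 to 0.365), but not between other groups. The replicate and the slide and row were also fitted as blocks. The fit was tested on simulated data with 200 changed genes. The Pln to Atp2a2 ratio and the pairs of probes used two-sided exact permutation over 70 regroupings of 4 against 4 arrays, and the test of probe pairs was added after seeing the data.

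The 10 genes, the lists of 109 calcium-handling genes and of cell type markers and the alternatives were chosen with earlier results of these data known. Beside the 10 genes, the text names per list up to 4 called genes of smallest adjusted p in DKO hearts, called neighbours within 1 Mb and the 3 genes most like Atp2a2; Cacna1c, Camk2d, Fkbp1a, S100a1 and Slc8a3 were added after their values were seen. One gene that this rule selects is not reported here. Of the 109 genes Strit1, Mrln, Arln, Erln and Ryr3 had no matched probe, and Ryr1, Ppp1r1a, Cacna1d, Atp2b4 and Slc8b1 did not pass the filter. The planned ratio of Sln to Atp2a2 and the genes most like Sln were left out because Sln lay at background.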

Additional observations from a re-analysis of the deposited data

Results flagged for a closer look

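In 3 of the 36 groups of 4 arrays examined, 1 array lay far from the other 3, and chance alone flags about 1 in 20 groups. Atp2a2 in AKT1 KO replicate 1 read 7.65, against 7.91 to 7.92 in the other AKT1 KO arrays. Pln in control replicate 1 read 6.38, against 6.48 to 6.49 in the other control arrays. Trdn in control replicate 3 read 5.06, against 5.24 to 5.26.

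The DKO difference departed from the sum of both single-knockout differences (limma, adjusted p under 0.05) for 8 genes: by -1.62 for Hrc, -1.61 for Asph, -0.82 for Pln, -0.79 for Trdn, -0.72 for Ryr2, -0.48 for Casq2, -0.42 for Atp2a2 and 0.64 for Slc8a1. Of all genes 26% departed (10.1% lower and 15.9% higher). With 1 array left out, Atp2a2 was called in 5 and Casq2 in 7 of 16 fits. Within slide 2 the departure was called for 0 of the 9 tested genes and for 1.37% of all genes. The departures listed are for the brightest probe of each gene. The other kept Asph probe had -0.006 and was not called. Other Atp2a2 probes had -0.64 (called) and 0.02 (not called), and other Slc8a1 probes 0.63 (called) and 0.56 (not called). Second probes of Ryr2 and Casq2 had -0.655 and -1.01, both called. No explanation of these departures was tested.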

How the results depend on the processing

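For the 9 genes, the 5 comparisons of DKO or a single knockout with control and of DKO with each single knockout were recomputed under 32 alternative settings, which gave 1440 values, of which 1391 kept their direction and their side of the threshold, 25 changed sign, 15 lost and 9 gained a call. Many of these values could not change sign. Leaving out an array of a group outside the comparison, or changing the filter on dim probes or the limma prior, leaves the difference the same. Such settings can move only the adjusted p, so the tally does not measure how robust the directions are. With 1 array left out, 8 to 9 genes were called in DKO against control hearts, where 38.4% to 51.1% of all genes were. The same counts held against AKT1 KO (41.2% to 53.7% of all genes) and AKT2 KO hearts (35.6% to 47.5%). No alternative turned the sign of any of the 9 differences between DKO and control. Within slide 2 the DKO counts were 6 against control (18% of all genes), 6 against AKT1 KO (19.8%) and 5 against AKT2 KO hearts (13.9%). The departure from additivity was called for 5 genes without the filter on dim probes (11.2% of all genes). It was called for 4 within slide 1 (19.7%) and 0 within slide 2 (1.37%), where fewer arrays entered the fit. With 1 array left out it was called for 5 (without AKT2 KO replicate 3) to 8, and for 21.1% to 35% of all genes. Over all groups same-numbered arrays correlated at -0.35 to 0.39 (24 pairs, 15 over 0.1). With replicate as a block 9, 8 and 8 genes were called in DKO against control, AKT1 KO and AKT2 KO hearts. Of all genes 46.2%, 47.4% and 42.2% were called there. The departure was called for 7 genes (without Atp2a2) and for 25.4% of all genes, and 0 were called elsewhere (0.124% to 0.765% of all genes). Slide and row as a block gave the same counts, beside 47.6%, 49.3%, 43.8% and 27.3% of all genes in the first 3 comparisons and the departure. The sign changes of single genes were all of genes not called in a single knockout. In AKT1 KO hearts Pln became 0.095 (quantile normalization), 0.104 (the authors' values), 0.001 (median scaling), 0.071 (array weights) and 0.015 (slide 2), and ran from -0.05 to 0.045 with 1 array left out. Ryr2 there became 0.033, 0.034, 0.052 and 0.061 under quantile normalization, the authors' values, array weights and slide 2, and ran from -0.085 to 0.043 with 1 array left out. Asph became -0.004 with the mean of its probes, Jph2 0.045 within slide 1, and Slc8a1 ran from -0.117 to 0.004 with 1 array left out. In AKT2 KO hearts Pln became -0.005 (normexp) and ran from -0.042 to 0.048, and Slc8a1 became 0.089 (slide 2) and ran from -0.097 to 0.024. The ratio of Pln to Atp2a2 became 0.016 in DKO and -0.011 in AKT1 KO hearts within slide 1. Jph2 was not called in DKO against control hearts without the filter (adjusted p = 0.0657), and was called against AKT1 KO and AKT2 KO hearts under quantile normalization (-0.315 and -0.339). Of the list genes 0 to 1 were called in AKT1 KO hearts with 1 array left out, the 1 being Akap7 (-1.91, adjusted p = 0.0234, without AKT1 KO replicate 1). All genes called in AKT1 KO hearts numbered 109, but 822 with array weights and 54 to 291 with 1 array left out, those in AKT2 KO hearts 18, but 14 to 37 with 1 array left out, and the share of higher calls in AKT2 KO hearts was 55.6%, but 43.5% under quantile normalization; no scaling moved the median of all genes by 0.1. The cause of these changes was not tested.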
